A study of Rattus norvegicus with 30 samples.

Results

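Transcript levels in the oesophageal epithelium of 5 zinc-deficient (ZD) rats given an oligonucleotide against the microRNA miR-31 over 5 weeks were set against those of 5 ZD rats given none. These 10 rats, with 1 array each, were taken by their sample titles from the 30 rats of the series. All 10 were male Sprague-Dawley rats without a gene edit, were put on the ZD diet with free access to food at 4 weeks of age, and received 4 intragastric doses of 2 mg/kg NMBA (N-nitrosomethylbenzylamine), which induces tumours in rat oesophagus, from week 5. The treated rats (antimiR) were given a locked nucleic acid oligonucleotide in PBS into the tail vein, with a first dose of 20 mg/kg and then 9 doses of 6 mg/kg. The controls were untreated and received no control oligonucleotide, so the dosing itself and the inhibition of miR-31 cannot be told apart. The arrays come from cohorts of 12 antimiR and 20 untreated rats, and the labels do not say how the 5 of each were picked. They do not settle whether the antimiR rats were killed 48 h after their last injection or, like the controls, 15 weeks after the first NMBA dose. In the first case the 2 groups may also differ in age and in time since NMBA, which could not be told apart from antimiR. Where levels are set beside other rats, these are 5 ZD rats given antimiR over 20 weeks (the same first 5 weeks and then 20 further doses) and 5 untreated rats on a zinc-sufficient (ZS) diet, pair-fed, all with the same NMBA doses.

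A microRNA pairs through its seed, bases 2 to 8 from its 5′ end, with sites in messenger RNAs and lowers their level or their translation. MiR-31 is abundant in squamous epithelium and is raised in squamous tumours of the oesophagus. An antimiR binds the mature strand and keeps it from its targets, so transcripts that miR-31 holds down directly can rise. The design text puts the question of which transcripts do so after delivery in the animal. MiR-31 itself was not measured on these arrays. Both mature strands of the rat hairpin are shown from RefSeq (build GRCr8, minus strand of chr5), with the seed in capitals, because the 5p strand is the one called miR-31.
rno-miR-31a-5p, chr5:108714906-108714927: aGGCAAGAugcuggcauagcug
rno-miR-31a-3p, chr5:108714869-108714891: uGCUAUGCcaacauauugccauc

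RNA was measured on Affymetrix rat expression arrays, and the values are log2 levels, 1 probe set per gene for 14217 genes. The medians of the 10 arrays lay between 5.38 and 5.44, and any pair of arrays within a group correlated at 0.982 or above over the probe sets. The mean level of 10 defining markers of squamous epithelium, such as Krt5, Krt13 and Tp63, was between 12.49 and 12.68 on the antimiR arrays and between 12.48 and 12.82 on the untreated ZD arrays. The defining markers of the labelled tissue were thus high on every array. Muscle transcripts were unequal between arrays: the mean level of 24 skeletal muscle genes ran from 5.01 to 8.29 with antimiR and from 4.80 to 8.42 without. In bulk RNA of this kind, fewer cells of a type and less RNA per cell cannot be told apart.

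No single gene passed. Of the 14217 genes, 0 (0%) had a limma adjusted p under 0.05 between the groups, and the smallest was 0.064. An unadjusted limma p under 0.05 was found for 1021 genes (7.18%), 473 of them lower with antimiR (3.33%) and 548 higher (3.85%). In 159 genes (1.12%) the 5 antimiR arrays did not overlap the 5 untreated arrays, 69 lower (0.485%) and 90 higher (0.633%). The median fitted change over all genes was 0.00, with quartiles of -0.08 and 0.09, with 6895 genes (48.5%) below 0 and 7322 (51.5%) above. At least a 2-fold difference was fitted for 20 genes in the lower direction (0.141%) and 13 in the higher (0.0914%). Below, every change is antimiR minus untreated ZD on the log2 scale with its standard error (SE), none of them passed unless said, and lists of genes are described by their counts and medians against these values. Where arrays are left out, the number of all genes with an unadjusted p under 0.05 moves too. It ran from 614 without untreated array 12 to 1596 without untreated array 15. A changed count in a list can therefore follow the changed number over all genes. The 5 arrays of a group limit the precision, and array numbers name rats only.

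**Figure D1:**
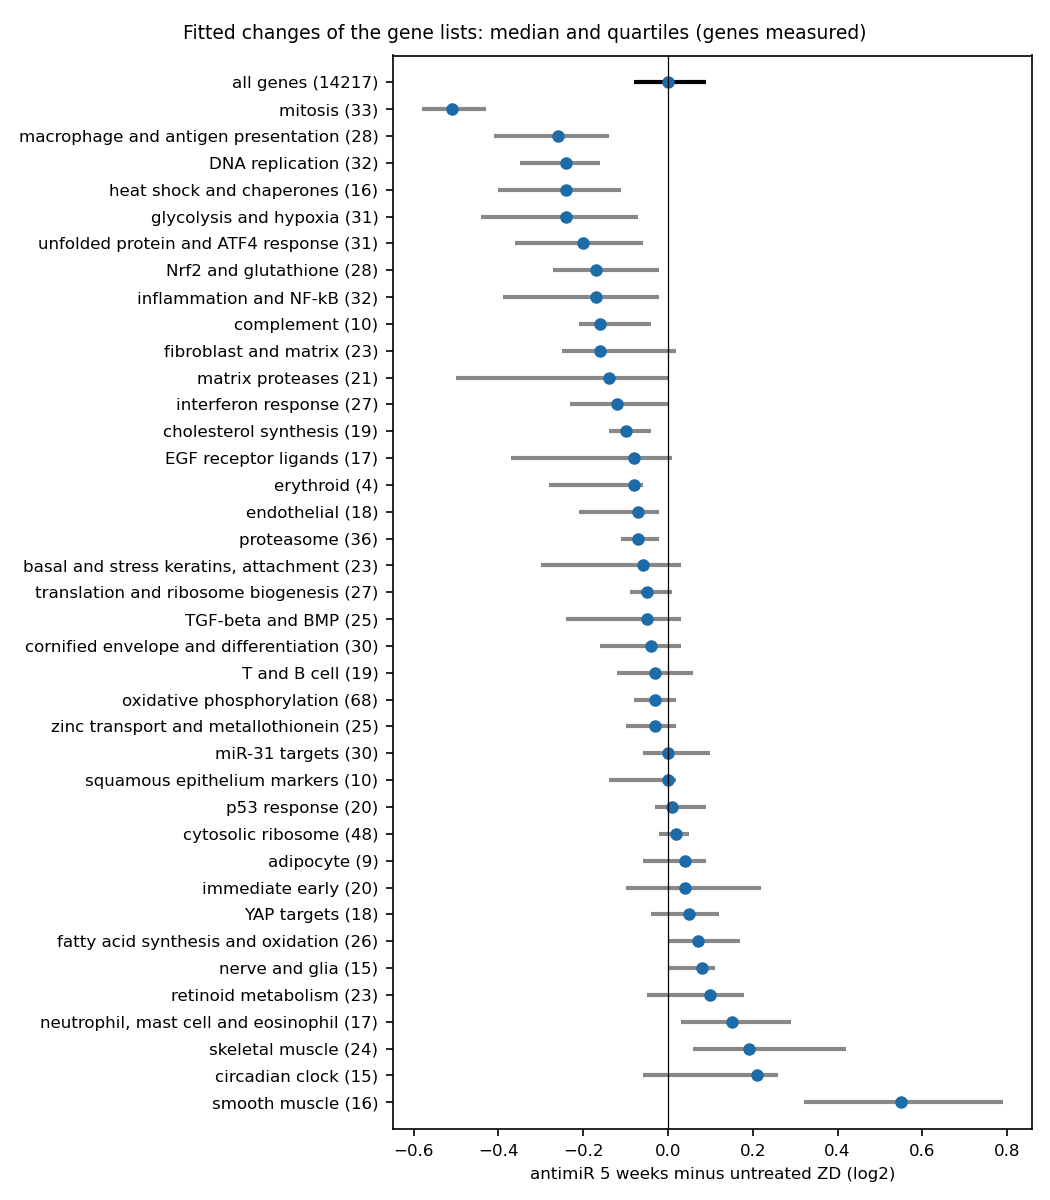
Median (point) and quartiles (line) of the fitted changes, antimiR over 5 weeks minus untreated ZD on the log2 scale, for each of 38 gene lists, with the number of genes measured, and for all 14217 genes at the top. The mitosis list has the lowest median, -0.51, and the smooth muscle list the highest, 0.55, while the miR-31 targets lie at 0.00 like all genes.

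The published targets of miR-31 did not stand higher with antimiR as a list. Of 30 measured, 15 lay below 0 and 15 above, the median was 0.00, and an unadjusted p under 0.05 was found for 2, both higher, with no target whose groups were apart. The mean level of the list was 7.55, 7.54, 7.58, 7.66 and 7.58 on antimiR arrays 6 to 10 and 7.54, 7.60, 7.53, 7.56 and 7.57 on untreated arrays 11 to 15. The groups overlap almost wholly. On ZS the list averaged 7.67 (SD 0.03, n = 5).

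Stk40, a kinase-like brake on NF-kB signalling, was at 6.74, 6.93, 6.95, 7.25 and 7.30 with antimiR and at 7.08, 6.95, 7.13, 7.03 and 7.05 without. Its fitted change was -0.01 (SE 0.08, limma adjusted p = 0.982), and it was 0.06 without antimiR array 6 and 0.00 after median centring. The treated rats spread to both sides of the untreated ones. Egln3, a prolyl hydroxylase that senses oxygen, stood at 8.51, 8.15, 7.87, 7.75 and 7.81 against 8.63, 8.93, 7.78, 7.79 and 8.86, a change of -0.38 (SE 0.23, limma adjusted p = 0.768). That is the lowest of the 30, the groups overlap, and without untreated array 12 the change is -0.24. The Hippo kinase Lats2 differed by 0.10 (SE 0.11), and by between 0.03 and 0.16 with single antimiR arrays left out. The members with the smallest p were Spry4, which restrains receptor tyrosine kinase signalling, at 0.22 (SE 0.10), the Rac activator Tiam1 at 0.22 (SE 0.10) and the chromatin remodelling subunit Arid1a at 0.19 (SE 0.10). Spry4 is 0.11 without untreated array 15, which has its lowest value (5.72), and 0.32 without untreated array 11. Arid1a is 0.11 without antimiR array 10 and 0.22 without untreated array 13. Tiam1 and Arid1a each have 3 further probe sets, and these differ by between -0.13 and 0.15.

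Genes of inflammation mostly had changes below 0, none of which passed, with much spread among the untreated rats. Of 32 cytokine, chemokine, prostaglandin and NF-kB feedback genes, 26 lay below 0, the median was -0.17, and an unadjusted p under 0.05 was found for 6 lower and 1 higher. Ptgs2, the inducible cyclooxygenase that makes prostaglandins in inflamed epithelium, stood at 3.45, 6.76, 4.20, 3.37 and 4.20 on antimiR arrays 6 to 10. On untreated arrays 11 to 15 it stood at 6.86, 9.14, 7.41, 8.29 and 3.15. The untreated rat on array 15 had the lowest level of all 10, and the treated rat on array 7 lay just under the other untreated rats. The change of -2.58 (SE 0.68, limma adjusted p = 0.417) is the lowest of all genes tested, and without array 15 it is -3.53 and passes. Mean Ptgs2 was 3.10 on ZS and 3.09 after 20 weeks of antimiR.

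Il1a, an epithelial alarm cytokine, was at 7.74, 7.19, 6.49, 5.97 and 6.43 with antimiR and at 9.12, 8.61, 7.39, 7.48 and 7.43 without, a change of -1.24 (SE 0.34, limma adjusted p = 0.44). Only antimiR array 6 reached into the untreated range. Without untreated arrays 11 and 12 together, a setting chosen after the data were seen, the change is -0.67. The neutrophil chemokine Cxcl2 differed by -0.78 (SE 0.29) and the mitochondrial superoxide dismutase Sod2, an NF-kB target, by -0.38 (SE 0.14). Cxcl2 is -0.45 without untreated array 12 and -0.39 without arrays 11 and 12, where Sod2 is -0.24. For Il6 the groups did not overlap, yet all 10 values lay between 2.76 and 3.14, near the lowest value in the table, 2.11.

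The chemokine gene Ccl20, which draws dendritic cells and lymphocytes to epithelium, went the other way. It stood at 7.84, 9.84, 8.55, 8.75 and 9.73 with antimiR and at 8.64, 7.63, 7.68, 6.65 and 8.18 without, a change of 1.19 (SE 0.50, limma adjusted p = 0.599), with overlap. The calprotectin subunits S100a8 and S100a9 differed by -0.98 (SE 0.98) and -1.54 (SE 1.12). S100a8 is -0.35 without untreated arrays 11 and 12 and -0.09 with the smooth muscle level as a covariate, and its difference is larger in size without array 15. S100a9 is -0.94 without antimiR array 9, -2.26 without untreated array 15 and -0.71 without arrays 11 and 12. S100a9 split each group: it was 9.86, 10.51, 10.55, 6.49 and 7.17 with antimiR and 12.21, 11.20, 10.71, 10.57 and 7.61 without. The mean level of the whole list was highest on untreated arrays 11 and 12 (7.18 and 7.17) and lowest on untreated array 15 (6.36), below all 5 antimiR arrays (6.37 to 6.93). Without arrays 11 and 12 the list's median is -0.11, with 2 of 32 genes lower at an unadjusted p under 0.05. The number lower is 2 without the dimmest genes of the table, but that filter takes Ptgs2, Cxcl2 and Il6 themselves out of the list.

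Matrix-degrading enzymes were high on those same untreated arrays. Of 21 genes of the plasminogen and metalloproteinase systems, 16 lay below 0, the median was -0.14, and 5 were lower at an unadjusted p under 0.05. Mmp13, a collagenase, stood at 7.15 and 8.26 on untreated arrays 11 and 12 and between 2.93 and 3.42 on arrays 13 to 15, with 3.24, 3.17, 2.79, 2.88 and 2.97 in the treated rats. The gelatinase Mmp9 stood at 5.84 and 6.65 on arrays 11 and 12, between 3.07 and 3.19 on the other untreated arrays and between 3.19 and 3.66 with antimiR. In both genes 2 untreated rats differ from the other 8 rats, and the antimiR rats lie near the other 3 untreated ones. The fitted change is -1.98 (SE 0.62) for Mmp13 and -1.03 (SE 0.44) for Mmp9, and -0.17 and 0.22 without arrays 11 and 12. Without array 12 alone they are -1.16 and -0.46. Without them the list's median is 0.01, with 1 of 21 genes lower, and it is -0.04 without array 11, -0.02 without array 12, -0.08 without antimiR array 8 and -0.22 without array 15. The number lower is 3 without array 12 and 2 with only the 10 arrays in the fit. It is 1 without the dimmest genes, where the median is -0.04, but that filter takes Mmp13, Mmp10 and Mmp9 themselves out of the list. Timp1, an inhibitor of these enzymes, showed no such split: 6.21, 5.98, 6.18, 6.78 and 5.84 with antimiR against 7.02, 6.66, 6.82, 6.94 and 6.44, a change of -0.58 (SE 0.20), with treated array 9 alone inside the untreated range.

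Keratins induced by wounding spread differently over the untreated rats. Krt17 stood at 8.80, 9.40, 9.53, 8.94 and 8.14 with antimiR and at 11.02, 13.04, 9.90, 10.93 and 7.16 without, a change of -1.45 (SE 0.61, limma adjusted p = 0.599). Here 4 untreated rats lay above every treated rat and array 15 lay below every treated rat. Without arrays 11 and 12 the change is -0.37, without array 12 alone -0.79, and without array 15 it is -2.26. Its level averaged 7.19 on ZS and 7.40 after 20 weeks of antimiR. Krt6c differed by -0.92 (SE 0.52), and the basal keratins Krt14 and Krt5 by -0.47 (SE 0.19) and -0.31 (SE 0.14). Without untreated array 12, Krt14 is -0.26 and Krt5 -0.16, and without arrays 11 and 12 they are -0.19 and -0.11. Krt6c is -0.33 without those arrays and -1.46 without array 15. The list of 23 basal and stress keratin and attachment genes had a median of -0.06, with 16 below 0, and 0.04 without arrays 11 and 12. Krt13, the suprabasal keratin of this tissue, differed by -0.01 (SE 0.04), and the 30 genes of the cornified envelope had a median of -0.04. The epithelial transcription factor Elf3 was the member of that list with the smallest p, at -0.57 (SE 0.19), and at -0.28 without arrays 11 and 12.

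**Figure D2:**
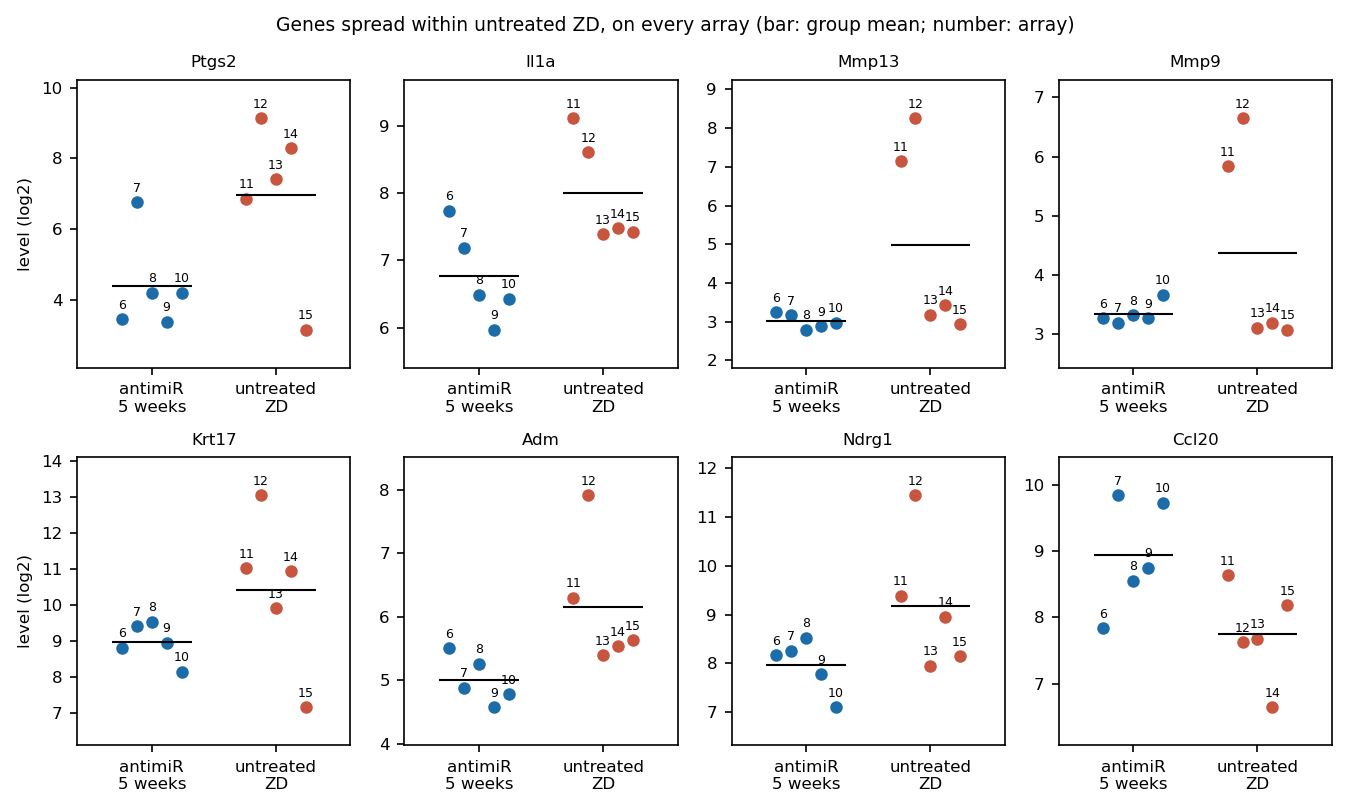
Log2 level of 8 genes on each of the 5 antimiR 5-week and 5 untreated ZD arrays, with array numbers and a bar at the group mean. Untreated arrays 11 and 12 hold the high values of Mmp13 (7.15 and 8.26) and Mmp9, array 12 those of Adm and Ndrg1, and array 15 the lowest untreated values of Ptgs2 (3.15) and Krt17 (7.16).

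Genes of glycolysis and of the response to low oxygen mostly had changes below 0, and none passed. Cells short of oxygen raise these genes through the HIF factors, which Egln enzymes mark for breakdown. Of 31 measured, 27 lay below 0, the median was -0.24 with quartiles of -0.44 and -0.07, and 13 were lower at an unadjusted p under 0.05 with none higher. In 2 of them, Ankrd37 and Vegfa, the groups did not overlap. Ankrd37, an ankyrin-repeat gene induced by hypoxia, stood at 4.26, 3.96, 4.21, 3.80 and 4.29 against 4.69, 5.06, 4.31, 4.46 and 4.90, a change of -0.58 (SE 0.13, limma adjusted p = 0.328). Its highest treated value, 4.29, lay just under its lowest untreated value, 4.31. The gene is dim, with all 10 values below the array medians, and the filter on dim genes removes it. Vegfa, the main growth factor for blood vessels, stood at 8.20, 8.04, 8.10, 8.14 and 8.26 against 8.44, 9.16, 8.56, 8.45 and 8.46, a change of -0.47 (SE 0.13, limma adjusted p = 0.443). Every treated rat lay below every untreated rat in both genes, and array 12 was the highest in both. A further probe set of Vegfa gave -0.46 (SE 0.16).

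Adm, the vasodilator peptide adrenomedullin, stood at 5.50, 4.88, 5.26, 4.58 and 4.78 against 6.30, 7.91, 5.39, 5.54 and 5.63, a change of -1.15 (SE 0.29, limma adjusted p = 0.384). Treated array 6 alone reached past an untreated rat. The stress-induced gene Ndrg1 stood at 8.17, 8.26, 8.53, 7.78 and 7.11 against 9.39, 11.44, 7.95, 8.96 and 8.15, a change of -1.21 (SE 0.39). Without untreated array 12 the changes are -0.72 for Adm and -0.64 for Ndrg1. Among the enzymes and carriers, the glucose transporter Slc2a1 differed by -0.42 (SE 0.15), hexokinase Hk2 by -0.59 (SE 0.27), the phosphofructokinase Pfkl by -0.38 (SE 0.13) and the lactate exporter Slc16a3 by -0.63 (SE 0.21). Lactate dehydrogenase Ldha differed by -0.26 (SE 0.16), and the collagen prolyl hydroxylase P4ha1 by -0.68 (SE 0.22). Without untreated array 12, Slc2a1 is -0.27, Hk2 -0.27, Pfkl -0.22, Slc16a3 -0.30 and Ldha -0.13. Slc2a1, Hk2, Pfkl, Slc16a3 and P4ha1 were chosen for naming after their values were seen.

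Untreated array 12 carried much of this list. The mean level of the 31 genes was 8.26, 8.23, 8.38, 8.27 and 8.11 on antimiR arrays 6 to 10 and 8.45, 8.95, 8.31, 8.49 and 8.47 on untreated arrays 11 to 15. Of the 5 treated arrays, 4 lay below every untreated array, and array 8 lay above array 13. On array 12 only 4 of the 31 genes were below the untreated mean, while on untreated arrays 11 and 13 there were 23 and 24, as on the antimiR arrays with 23 to 26. Without array 12 the median is -0.13 and 6 of 31 genes are lower at an unadjusted p under 0.05. In that setting 614 of all genes reach this p in either direction, against 1021 in the main fit. Without arrays 11 and 12 the median is -0.17, also with 6 genes, and with only the 10 arrays in the fit 6 genes are lower. Vegfa without array 12 differs by -0.33 and Ankrd37 by -0.48.

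**Figure D3:**
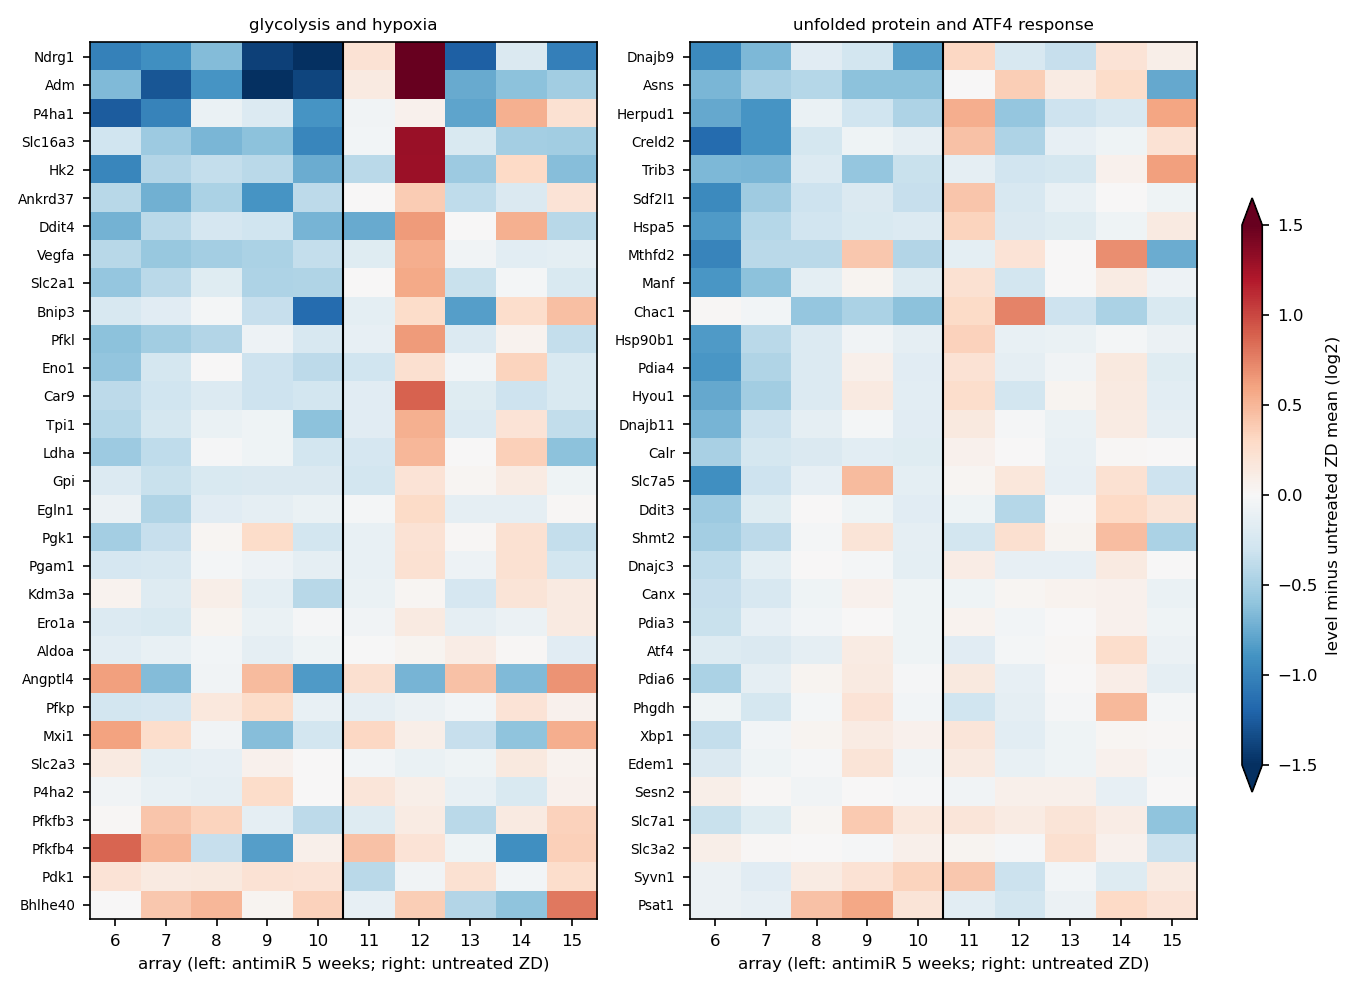
Level of each gene of the glycolysis and hypoxia list (31 genes) and of the unfolded protein and ATF4 list (31 genes) on each array, as log2 difference from the untreated ZD mean, with colours ending at the scale's limits. Array 12 stands out as high in the first list, and antimiR array 6 as low in the second.

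Genes of the unfolded protein response, among them chaperones of the endoplasmic reticulum, mostly had changes below 0, and none passed. Secretory and membrane proteins fold there with the help of Hspa5 (BiP), Hsp90b1 and Calr, and the unfolded protein response raises these genes through ATF6 and XBP1 and amino acid genes through ATF4. Of 31 genes of this response measured, 26 lay below 0, the median was -0.20 with quartiles of -0.36 and -0.06, and 12 were lower at an unadjusted p under 0.05 with none higher. Calr, the calcium-binding chaperone calreticulin, stood at 10.52, 10.76, 10.79, 10.85 and 10.83 with antimiR and at 11.08, 11.02, 10.90, 11.04 and 11.02 without. Every treated rat lay below every untreated one, and the change is small, -0.26 (SE 0.08, limma adjusted p = 0.49). Hspa5 stood at 11.62, 12.04, 12.18, 12.24 and 12.26 against 12.81, 12.25, 12.29, 12.41 and 12.60, a change of -0.40 (SE 0.16, limma adjusted p = 0.567). Treated array 10 alone reached past an untreated rat, array 12.

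Dnajb9, a co-chaperone that binds Hspa5, differed by -0.58 (SE 0.17), Sdf2l1, a partner of Hspa5 complexes, by -0.47 (SE 0.15) and Hsp90b1 by -0.33 (SE 0.12), or -0.20 without antimiR array 6. The degradation factor Herpud1 differed by -0.50 (SE 0.19) and the secreted stress protein Creld2 by -0.50 (SE 0.22). Asns, the asparagine synthetase induced by ATF4, stood at 6.80, 6.98, 7.04, 6.86 and 6.86 against 7.48, 7.85, 7.60, 7.75 and 6.70, a change of -0.57 (SE 0.23). Here 4 untreated rats lay above every treated rat and array 15 below. Its mean was 6.37 on ZS and 6.39 after 20 weeks of antimiR, while Calr averaged 10.98 on ZS. Hspa5, Herpud1, Creld2 and Asns were chosen for naming after their values were seen.

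The level of the whole list was 9.06, 9.26, 9.46, 9.59 and 9.42 on antimiR arrays 6 to 10 and 9.69, 9.50, 9.53, 9.69 and 9.50 on untreated arrays 11 to 15. Treated array 9 was the only one inside the untreated range, and array 6 was the lowest. Without array 6 the median is -0.10, with 5 of 31 genes lower at an unadjusted p under 0.05, and the number is 7 without antimiR array 7 or untreated array 11 or 14 and 6 with only the 10 arrays in the fit. Without untreated arrays 11 and 12 the median is -0.19 with 7 genes. Heat shock genes, mostly cytosolic chaperones with the mitochondrial Hspd1 and Hspe1, had the same low array: of 16 genes, 14 lay below 0 and the median was -0.24, and it is -0.07 without array 6. The Hsp70 co-chaperone Dnajb1 differed by -0.49 (SE 0.17) and the Hsp90 co-chaperone Fkbp4 by -0.33 (SE 0.13).

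The promoters of the endoplasmic reticulum genes were read from RefSeq (GRCr8), 250 bases before to 50 after each start. The stress element bound by ATF6 with NF-Y was searched as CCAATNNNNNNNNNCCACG on both strands. It was in 7 of the 28 promoters of the list that were available (25%) and in 17 of 11733 promoters of measured genes (0.145%). The list was made up of genes of this response, and both shares come from the letters alone. They describe the list and say nothing about antimiR. Promoters of other folding genes of the list, such as Pdia4, Dnajb9, Sdf2l1 and Hyou1, had no match. The sites are shown because Calr, Hspa5 and Hsp90b1 are among the 7 genes that carry them, read 5′ to 3′ on the strand that carries CCAAT, with the searched letters in capitals.
Calr, chr19:40213135-40213153: CCAATcagggtcgaCCACG
Hspa5, chr3:38452973-38452991: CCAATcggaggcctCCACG
Hsp90b1, chr7:23012451-23012469: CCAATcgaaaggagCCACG
Hsp90b1, chr7:23012347-23012365: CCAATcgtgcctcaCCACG
Creld2, chr7:121789239-121789257: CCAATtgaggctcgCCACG
Dnajc3, chr15:102432534-102432552: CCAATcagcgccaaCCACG
Canx, chr10:35158069-35158087: CCAATcatcacgctCCACG
Xbp1, chr14:84604558-84604576: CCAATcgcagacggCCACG
Of these genes, Calr, Hspa5, Hsp90b1 and Creld2 were lower at an unadjusted p under 0.05, and Xbp1, with the same letters, differed by -0.03. Over all 17 genes with the element, 13 lay below 0 with a median of -0.11, and over the 10 of them outside the list, 6 lay below 0 with a median of -0.01. A match is a description of the letters and not a measured binding site.

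For Calr, the one gene of the list whose groups did not overlap, the 250 bases before the start are shown (chr19:40213117-40213366, plus strand), with the element in capitals as it reads on this strand.
Calr promoter: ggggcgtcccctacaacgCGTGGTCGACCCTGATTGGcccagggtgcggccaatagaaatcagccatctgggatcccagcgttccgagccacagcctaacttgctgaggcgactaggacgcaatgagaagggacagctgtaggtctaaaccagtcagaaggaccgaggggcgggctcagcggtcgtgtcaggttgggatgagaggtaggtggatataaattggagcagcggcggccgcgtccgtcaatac
The short cores of the other responses were common in all promoters: ACGTG or GCGTG was in 19 of 27 glycolysis and hypoxia promoters (70.4%) and in 57.8% of all. TGACNNNGC or TGAGNNNGC, the core bound by Nrf2, was in 9 of 25 promoters of its list (36%) and in 31% of all.

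Antioxidant genes driven by Nrf2 lay below 0 in 21 of 28, and none passed. Nrf2 induces enzymes that make glutathione and detoxify reactive compounds. The median was -0.17, 7 lay above 0, and 7 were lower at an unadjusted p under 0.05 with none higher. Gclm, the regulatory subunit of the enzyme that limits glutathione synthesis, stood at 10.22, 10.24, 10.25, 10.20 and 10.22 with antimiR and at 10.97, 10.64, 10.47, 10.40 and 10.46 without. The treated rats lay within 0.05 of each other and below every untreated rat, a change of -0.36 (SE 0.11, limma adjusted p = 0.49). Akr7a3, an aldehyde reductase that detoxifies aflatoxin aldehydes, stood at 8.39, 8.26, 8.72, 8.69 and 8.38 against 8.97, 8.82, 8.79, 8.74 and 8.94, a change of -0.37 (SE 0.10, limma adjusted p = 0.44). The groups were apart by only 0.02. The glutathione transferase Gstp1, chosen after its values were seen, was the other member without overlap, at -0.42 (SE 0.16).

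The quinone reductase Nqo1 differed by -0.40 (SE 0.14), the carbonyl reductase Cbr1 by -0.64 (SE 0.22), and the cystine carrier Slc7a11, named after its values were seen, by -0.50 (SE 0.19). Cbr1 stood at 11.18 on untreated array 12 and at 9.79 or below on the others, and its change is -0.30 without that array and -0.20 without arrays 11 and 12. The mean level of the list was 9.70, 9.72, 9.91, 9.86 and 9.82 on antimiR arrays 6 to 10 and 10.00, 10.04, 9.99, 9.98 and 9.90 on untreated arrays 11 to 15. Treated array 8 alone lay above an untreated array, number 15. The median is -0.10 without antimiR array 7 and the number lower is 12 without antimiR array 9. Without untreated arrays 11 and 12 the median is -0.14 with 2 genes lower. In that last setting 671 of all genes reach an unadjusted p under 0.05 in either direction, against 1021 in the main fit.

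**Figure D4:**
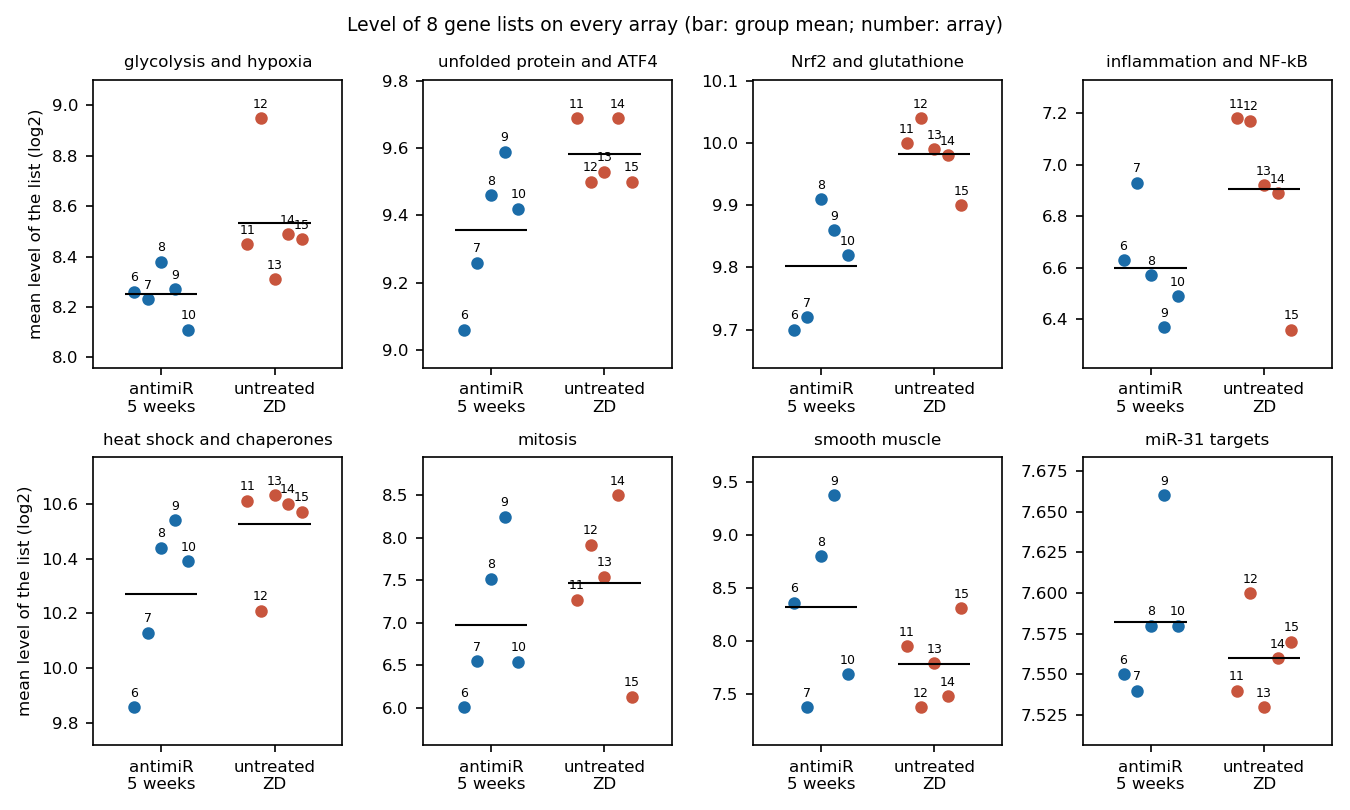
Mean log2 level of 8 gene lists on each of the 5 antimiR 5-week and 5 untreated ZD arrays, with array numbers and a bar at the group mean; each panel has its own axis. In the glycolysis, unfolded protein and Nrf2 lists 4 of 5 antimiR arrays lie below every untreated array, whereas mitosis, smooth muscle and miR-31 targets overlap widely.

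Proliferation genes had the lowest median of all lists and yet no member with an unadjusted p under 0.05. All 33 mitotic genes lay below 0, with a median of -0.51, and all 32 genes of DNA replication lay below 0, with a median of -0.24. The mean level of the mitosis list was 6.01, 6.55, 7.52, 8.25 and 6.54 with antimiR and 7.27, 7.92, 7.54, 8.50 and 6.13 without. Both groups spread over more than 2 log2 units and overlap, and the genes move as 1 block from rat to rat. With antimiR, none of the 33 lay below the untreated mean on array 9, and all did on arrays 6, 7 and 10. Among untreated rats, none did on arrays 12 and 14, all did on array 15 and 31 did on array 11. Mki67, a marker of cycling cells, stood at 6.78, 7.70, 8.93, 9.76 and 7.77 against 8.71, 9.07, 8.80, 9.73 and 7.18, a change of -0.51 (SE 0.43, limma adjusted p = 0.827). The mitotic kinase Cdk1 differed by -0.61 (SE 0.43), cyclin Ccnb1 by -0.61 (SE 0.38) and the spindle gene Hmmr by -0.75 (SE 0.38). Mki67 is -0.16 without antimiR array 6 and -0.91 without antimiR array 9. The mitosis median is -0.23 without antimiR array 6, -0.25 without untreated array 14, and -0.86 without antimiR array 9 or without untreated array 15. That of DNA replication is -0.09 without antimiR array 6, -0.10 without untreated array 14, -0.16 without array 12, -0.43 without antimiR array 9, -0.49 without array 15 and -0.15 with the smooth muscle level as a covariate. A count of members below 0 adds little where members share their rat-to-rat spread. That limit is not confined to proliferation genes and bears on the counts of the other lists. Of 16 smooth muscle genes, for example, 15 lay below the untreated mean on antimiR array 7 and 0 on antimiR arrays 8 and 9.

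The polyamine enzyme Odc1, needed by dividing epithelial cells, differed by -0.67 (SE 0.22). It stood at 8.70, 8.98, 8.73, 9.53 and 8.90 against 9.96, 10.32, 9.65, 9.81 and 8.45, so 4 untreated rats lay above every treated rat and array 15 lay below all. Without array 15 its change is -0.97 and passes, as do those of the tubulin Tubb2a at -1.24 and the calcium-binding S100g at -1.07. Without arrays 11 and 12 the change of Odc1 is -0.34 and that of Tubb2a -0.49. Of growth factor genes, Inhba, which encodes the activin A subunit, differed by -0.75 (SE 0.28) and the EGF receptor ligand Tgfa by -0.42 (SE 0.20). The MAP kinase phosphatase Dusp6, a readout of ERK signalling, differed by -0.42 (SE 0.19), and Inhba, Tgfa and Dusp6 are -0.29, -0.10 and -0.24 without arrays 11 and 12. Lrig1, which restrains EGF receptors, differed by 0.41 (SE 0.17). The matricellular genes Ccn1 and Ccn2, both targets of YAP, differed in opposite directions: Ccn1 by 1.12 (SE 0.42) with overlap, and Ccn2 by -0.45 (SE 0.34) with groups apart. Ccn2 was named after its values were seen. The list of 18 YAP targets had a median of 0.05.

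Zinc-handling genes, lipid genes and housekeeping sets showed small medians. Of 25 zinc transporters and metallothioneins, 16 lay below 0 with a median of -0.03. Mt2A and Mt1, metallothioneins that bind zinc and rise with it, differed by -0.67 (SE 0.27) and -0.37 (SE 0.17), and the gut zinc importer Slc39a4 by -0.04 (SE 0.11). Slc39a14, an importer of zinc and iron raised in inflammation, was the member whose groups were apart, at -0.21 (SE 0.09). Of 26 genes of fatty acid synthesis and oxidation, 7 lay below 0 with a median of 0.07. Cpt1a, the enzyme that admits fatty acids to mitochondria, stood at 9.49, 9.51, 9.51, 9.70 and 9.51 against 8.81, 8.96, 9.55, 8.74 and 9.44, a change of 0.44 (SE 0.13, limma adjusted p = 0.443). The treated rats were close together, and untreated array 13 alone lay among them.

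Of 23 genes of retinoid metabolism, 8 lay below 0 with a median of 0.10; the retinal reductase Dhrs3 differed by 0.39 (SE 0.15) and the retinal dehydrogenase Aldh1a1 by 0.53 (SE 0.27), which is 0.32 without untreated array 12. The retinoid median is 0.05 without antimiR array 6 or untreated array 12 or 14. The median was 0.02 for 48 cytosolic ribosomal genes, -0.03 for 68 genes of oxidative phosphorylation, -0.07 for 36 proteasome genes, 0.01 for 20 p53 response genes and -0.12 for 27 interferon-induced genes. For 19 genes of cholesterol synthesis it was -0.10, with -0.01 without untreated array 14, -0.16 without array 11 and -0.19 without arrays 11 and 12. It was -0.05 for 25 genes of TGF-beta and BMP signalling, -0.08 for 17 EGF receptor ligand and related genes, 0.04 for 20 immediate early genes and -0.05 for 27 of ribosome biogenesis. The 15 clock genes had a median of 0.21, with 0.07 without untreated array 11, 0.08 without array 14 and -0.02 without arrays 11 and 12. Rps16 was the ribosomal gene whose groups were apart, at 0.16 (SE 0.06).

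Markers of other cell types were described in the same way, and none passed. Smooth muscle contractile genes were higher with antimiR in 15 of 16, with a median of 0.55 and 1 gene at an unadjusted p under 0.05. Myh11, the smooth muscle myosin, stood at 9.79, 8.34, 10.48, 11.12 and 8.89 against 8.92, 7.57, 8.70, 8.32 and 9.81, a change of 1.06 (SE 0.50, limma adjusted p = 0.679). The list's mean level was 8.36, 7.38, 8.80, 9.37 and 7.69 with antimiR and 7.95, 7.38, 7.79, 7.48 and 8.31 without, so 3 treated rats lay above all untreated ones. The median is 0.28 without antimiR array 9. With this level as a covariate, the median is -0.19 for glycolysis and hypoxia with 9 genes lower at an unadjusted p under 0.05. It is -0.20 for the unfolded protein response with 8 genes, -0.10 for Nrf2 with 7 and -0.12 for inflammation with 5.

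Macrophage and antigen presentation markers lay below 0 in 23 of 28, with a median of -0.26 and 2 genes lower at an unadjusted p under 0.05. Their mean level was 7.26, 6.97, 6.49, 6.88 and 6.52 with antimiR and 7.18, 7.06, 7.01, 6.96 and 7.10 without. The untreated rats lay close together, and the treated ones ran from above to below them. The class II assembly gene RT1-DMa differed by -0.46 (SE 0.15) and the myeloid adaptor Tyrobp by -0.42 (SE 0.19). Whether these cells bear on the inflammation list was not tested. The 18 endothelial markers had a median of -0.07. Esm1, which tip cells of growing vessels make under VEGF, stood at 4.25, 3.61, 3.96, 3.62 and 3.87 against 4.73, 6.76, 4.24, 4.93 and 3.96, a change of -1.06 (SE 0.29, limma adjusted p = 0.417), and -0.60 without array 12. Lox, which crosslinks collagen, differed by -0.86 (SE 0.26). For 23 fibroblast and matrix genes the median was -0.16, but it was -0.04, -0.05 and -0.09 without antimiR arrays 10, 7 and 8, -0.29 without antimiR array 9, -0.09 without untreated array 13 and -0.41 with the smooth muscle covariate. The median was -0.03 for T and B cells. For granulocytes and mast cells it was 0.15, with 0.00 without antimiR array 8 and 0.24 without array 10. For 10 complement genes it was -0.16, with -0.05, -0.07 and -0.25 without antimiR arrays 10, 8 and 6 and -0.09 without untreated array 15. Skeletal muscle genes had a median of 0.19, and of -0.31 with array weights. With single arrays left out it ran from -0.23 without untreated array 15 to 0.76 without antimiR array 8 or untreated array 13. The medians of nerve, adipocyte and red cell markers were 0.08, 0.04 and -0.08.

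**Figure D5:**
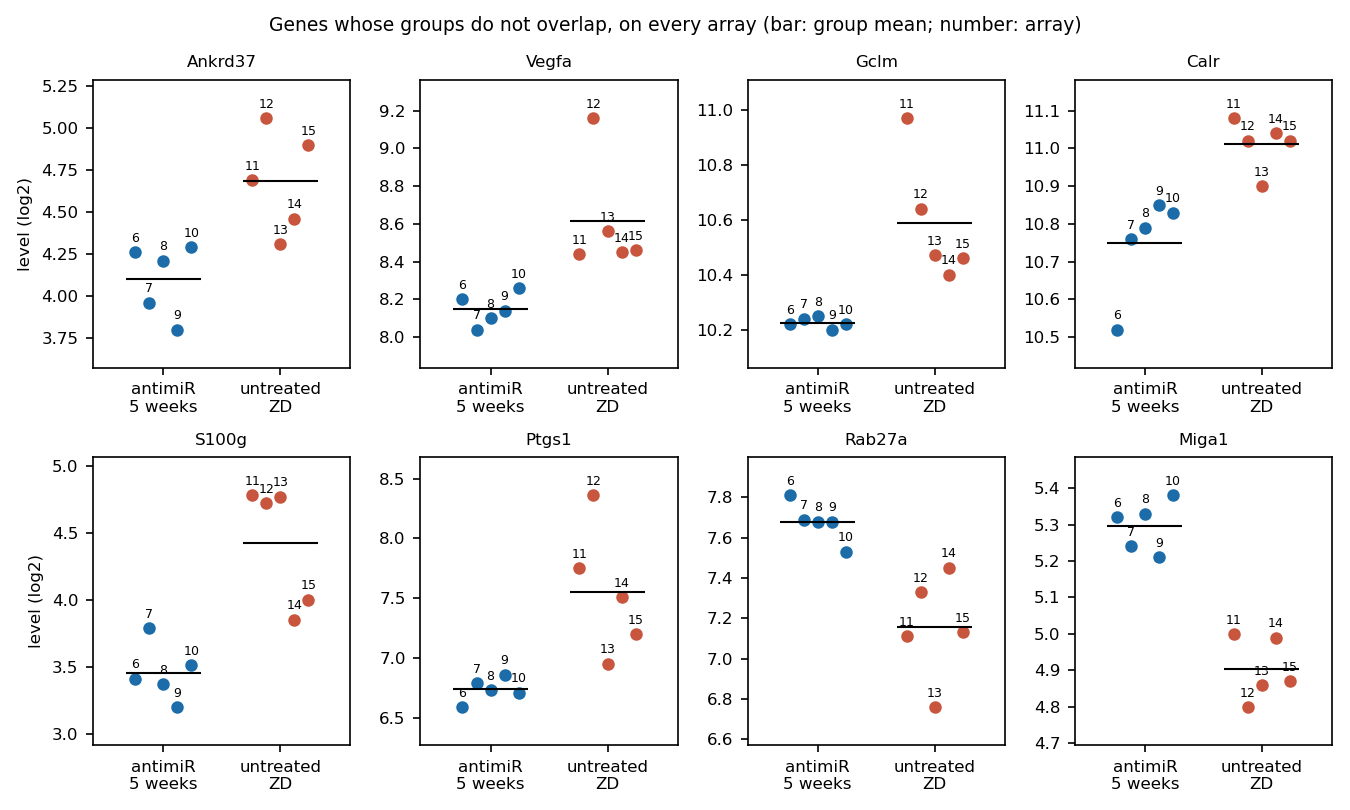
Log2 level of 8 genes whose 5 antimiR 5-week arrays do not overlap the 5 untreated ZD arrays, with array numbers and a bar at the group mean. Ankrd37, Vegfa, Gclm, Calr, S100g and Ptgs1 are lower with antimiR and Rab27a and Miga1 higher, with changes of -0.26 for Calr and -0.97 for S100g.

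Among single genes with groups apart, S100g had the smallest adjusted p. S100g, the calcium-binding protein calbindin-D9k, stood at 3.41, 3.79, 3.37, 3.20 and 3.51 with antimiR and at 4.78, 4.72 and 4.77 on untreated arrays 11 to 13, with arrays 14 and 15 lower and 3.85 the lowest. The gap between the groups is 0.06 and the levels are near the bottom of the scale. The change is -0.97 (SE 0.17, 95% interval -1.32 to -0.62, limma adjusted p = 0.064), and ZS rats averaged 3.31. Ptgs1, the constitutive cyclooxygenase, stood at 6.59, 6.79, 6.73, 6.86 and 6.71 against 7.75, 8.36, 6.95, 7.51 and 7.20, a change of -0.81 (SE 0.21, limma adjusted p = 0.392). The treated rats lay close together, and the ZS mean was 7.18. A further probe set of Ptgs1 gave -0.41 (SE 0.16), and the change is -0.48 without untreated arrays 11 and 12.

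Also lower with groups apart were the schlafen gene Slfn4 at -1.20 (SE 0.38) and the filament-family gene Iffo2 at -1.11 (SE 0.36). So was Gpr15lg, a ligand made by squamous epithelium, at -0.97 (SE 0.36). The amino acid carrier Slc6a20a differed by -0.81 (SE 0.20), the proteoglycan Vcan by -0.78 (SE 0.34), the protease inhibitor Serpina3n by -0.66 (SE 0.21), the O-glycan enzyme C1galt1 by -0.65 (SE 0.17) and the adhesion scaffold Nedd9 by -0.61 (SE 0.16). Further probe sets gave 0.09 for Slfn4, -0.25 for Slc6a20a, -0.40 for Nedd9 and between -0.55 and -0.12 for Vcan, while all 3 probe sets of C1galt1 gave between -0.65 and -0.64. Slc47a1, a cation and toxin exporter named after its values were seen, had an adjusted p of 0.328 in limma at -0.78 (SE 0.17), with overlap. On the higher side, the vesicle transport GTPase Rab27a stood at 7.81, 7.69, 7.68, 7.68 and 7.53 against 7.11, 7.33, 6.76, 7.45 and 7.13, a change of 0.52 (SE 0.12, limma adjusted p = 0.328). Its 2 further probe sets gave 0.44 and 0.29. Miga1, which promotes fusion of mitochondria, differed by 0.39 (SE 0.09), the lysine degradation enzyme Dhtkd1 by 0.47 (SE 0.15), the fatty acid hydroxylase Fa2h by 0.62 (SE 0.30, and 0.37 without antimiR array 9), the transcription factor Pou2f1 by 0.57 (SE 0.19) and the myosin phosphatase subunit Ppp1r12a by 0.35 (SE 0.16).

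Il18, an epithelial cytokine of the IL-1 family, was the gene, of those given values here, that passed between the durations of antimiR. It stood at 7.56, 7.27, 7.44, 7.33 and 7.68 after 5 weeks and at 8.16, 7.77, 8.30, 8.48 and 7.80 in untreated ZD rats, a change of -0.65 (SE 0.19, limma adjusted p = 0.448). After 20 weeks it averaged 8.66, which is 1.20 above the 5-week rats (limma adjusted p = 0.00869). Il18 was named for its low 5-week values, and the same values enter this contrast. Ptgs2, Krt17, Car2 and Egln3 did not pass between the durations, with 20 minus 5 weeks at -1.30, -1.56, -2.25 and 1.01. Car2, a carbonic anhydrase, stood at 9.22, 10.01, 10.48, 9.58 and 9.13 after 5 weeks and at 10.08, 11.67, 10.52, 10.80 and 8.59 without antimiR, a change of -0.65 (SE 0.65), which is -0.31 without untreated array 12 and -1.08 without array 15. On ZS it averaged 5.77, and every 5-week rat lay above that mean.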

How the data were processed

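The deposited values are log2 expression levels per probe set, which the authors made with Affymetrix Expression Console and RMA, per the submitters' processing notes, with versions not given in the sources used here. There were 31099 probe sets and 30 arrays. Where a gene had several, its brightest probe set by mean over all arrays stood for it, which left 14217 genes. The knockout arrays have higher medians (5.81 to 5.93) and were taken as normalized separately; they entered only the shared estimate of spread.

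limma 3.58.1 in R 4.3.3 fitted 1 coefficient per group to all 30 arrays, with Benjamini-Hochberg adjustment over 14217 genes and a threshold of 0.05. Nothing says that rats were housed apart, so p-values measure spread between rats, pooled per gene over all groups of the series. For genes that spread more in the compared rats than in the other groups, the SE is too small for these 10 rats. Ptgs2, for one, had an SD of 2.31 in untreated ZD and 1.38 with antimiR, but 0.09 on ZS. The code was checked on simulated data, with genes independent of each other and 1 spread per gene shared by all groups. There, 92 of 100 genes changed by 1 log2 unit and 64 of 100 changed by 0.5 were recovered, with 7 false calls among 14217 genes. The real genes share spread and some spread more in untreated ZD, so these shares do not give the power of this comparison.

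The comparison and the 38 gene lists were chosen with earlier results of these data known, so no set test was made. Genes were named by rule: the 15 largest differences in each direction with groups apart, leaving aside locus-only symbols; in each list at most 4 members with the smallest p; and Ptgs2, S100a8, S100a9, Egln3, Stk40, Lats2, Mki67, Krt17, Krt6c, Krt14, Krt13, Car2, Vegfa, Ldha, Slc39a4, Mt1, Acta2 and Cdk1. Others are said to be chosen after their values were seen, which holds also for Tubb2a, Ccl20 and Il6. Alternatives were other normalizations, a filter on dim genes, other moderation, array weights, fewer arrays in the fit, the mean of probe sets, a smooth muscle covariate, and each array left out in turn. Skeletal muscle as a covariate and leaving out untreated arrays 11 and 12 were added after the data were seen.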

Additional observations from a re-analysis of the deposited data

Results flagged for a closer look

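Single arrays stood apart from the other 4 of their group, by the gap to the nearest array divided by the group's range, in 20 of 326 groups of values tested, where chance gives about 1 in 20. The limit was Dixon's 95% critical value for 5 samples. With antimiR, array 6 was low for Calr (0.711), Krt14 (0.798) and Rps16 (0.769), array 7 was high for Ptgs2 (0.753), and array 8 was low for Klf2 (0.817). Array 9 was high for Lig1 (0.738) and Cpt1a (0.885), and array 10 was low for Vcan (0.725) and high for Mmp9 (0.744), Arid1a (0.887) and Per3 (0.756). Among untreated ZD rats, array 12 was high for Dmxl2 (0.884), Vegfa (0.829), Flt1 (0.737), Slc16a3 (0.736) and the level of the glycolysis and hypoxia list (0.724). The same array was low for the level of the heat shock and chaperone list (0.853). Array 11 was high for Hsp90b1 (0.809), array 14 low for Lox (0.796) and array 15 high for Ccn2 (0.713).

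Il18 differed between 20 and 5 weeks of antimiR by 1.20 (SE 0.19, limma adjusted p = 0.00869), in a contrast of the antimiR groups themselves. The labels do not settle when the 5-week rats were killed, so these groups may differ in more than the duration of dosing.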

How the results depend on the processing

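Over 21 other settings, the number of genes passing in limma was 1 after median centring, 2 after quantile normalization and 1 with skeletal muscle as a covariate, and ran from 0 to 4 when single arrays were left out, with 4 (S100g, Ptgs2, Odc1, Tubb2a) without untreated array 15 and 1 without antimiR array 7 or untreated array 11, 13 or 14. It was 0 in the other settings. The genes with an unadjusted p under 0.05 numbered 671 without untreated arrays 11 and 12, and from 614 (without array 12) to 1596 (without array 15) when single arrays were left out. Of 18 lists with a median of at least 0.1 in size, 3 changed sign in some setting: matrix proteases, clock and skeletal muscle. Signs turned for Krt13, at 0.00 with array weights, 0.01 after median centring and -0.02 to 0.01 leaving out single arrays. They also turned for Mmp9 (0.22 without arrays 11 and 12), Acta2 (-0.13 with smooth muscle as a covariate), Slc39a4 (0.03 with that covariate, -0.08 to 0.02 leaving out single arrays) and Stk40 (0.00 after median centring, -0.08 to 0.06 leaving out single arrays). Sample numbers are unique to each rat. The number of arrays limits the precision. Dim genes near the bottom of the scale, such as Il6, Mmp9, S100g, Ankrd37 and Esm1, are limited further by signal.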
